A study of Mus musculus with 20 samples.

Results

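The genes described here are the MHC class II genes Cd74, H2-Aa, H2-Ab1, H2-Eb1, H2-DMa and H2-DMb1 and their transactivator Ciita. They were chosen by symbol, with no measured value in the rule but with earlier results of these data known. They make up 7 of the 24315 genes of each expression table. RNA was sequenced from LSK cells (lineage-negative, Sca1+, Kit+ cells, the bone marrow compartment of stem and multipotent progenitor cells) and from MEP cells (megakaryocyte-erythroid progenitors, by the study's definition lineage-negative, Kit+, Sca1-, CD34- and low in Fc gamma receptors), both sorted from the bone marrow of C57BL/6 mice. Each cell type has 10 libraries, 3 of WT, 3 of Dnmt3a-/-, 2 of Bcor-/- and 2 of Bcor-/-Dnmt3a-/- mice, and the LSK and MEP libraries come from the same mice. The knockouts are conditional alleles recombined by Mx1-Cre, a transgene driven by an interferon-responsive promoter and switched on with the interferon inducer pIpC, and the WT mice carry untargeted genes. In the study's text the Bcor-/-Dnmt3a-/- mice of this comparison are leukemic, and deletion of Dnmt3a by Mx1-Cre is described as partial in Dnmt3a-/- mice, so genotype and leukemia cannot be told apart in the Bcor-/-Dnmt3a-/- group. The labels give no age, no disease stage and no treatment of the WT mice, and 1 Bcor-/- library of each cell type is labelled with 2 mice. Values are in FPKM, a read abundance corrected for transcript length and library size, which allows levels of different genes to be compared within a library.

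MHC class II molecules are pairs of an alpha and a beta chain that show peptides from endocytosed proteins to CD4+ T cells. In mice of this strain H2-Aa and H2-Ab1 encode the 2 chains of the I-A molecule, and H2-Eb1 encodes the beta chain of I-E, for which the strain lacks a functional alpha chain. Cd74, the invariant chain, occupies the groove of a new class II molecule and escorts it to the endosome, where H2-DMa and H2-DMb1 form the H2-M molecule that exchanges the remaining Cd74 fragment for a peptide. Ciita does not bind DNA itself, and joins the RFX, CREB and NF-Y factors on the X and Y boxes found upstream of class II genes. Dendritic cells, B cells and macrophages are the classical class II expressing cells.

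The H2 genes lie together on chromosome 17. Upstream sequences were read from RefSeq (build GRCm38.p6), whose promoter table holds windows for 4 of the 7 genes, H2-Aa, H2-Eb1, H2-DMb1 and H2-DMa, and for the 4 related genes H2-DMb2, H2-Oa, H2-Ob and H2-Eb2. Each window reaches from 250 bases before to 50 bases after the gene's start. Of these 8 genes, 7 hold the letters CNNNNAAC followed, after 10 to 40 bases, by the inverted CCAAT box TGATTGG, with N any base and either strand allowed. The 2 windows listed for H2-DMa, which begin at chr17:34122582 and chr17:34125268, do not hold the pair. Whether they cover every start of H2-DMa was not checked, so nothing follows for this gene's other upstream sequence. The same pair is found in 248 of all 32851 promoter windows (0.755%), TGATTGG alone in 7.82% and CNNNNAAC alone in 81.6%. The letters were picked from these class II promoters, so the shares are a description. With a gap of 15 to 35 bases, the range used first, the pair is in 162 of the windows (0.493%) and in the same number of class II genes. The stretches below are shown because they carry these letters, with the X box letters and the Y box letters in capitals. Of the 7 genes 3 were found to have such a stretch, H2-Aa, H2-Eb1 and H2-DMb1, and dependence on Ciita was not measured.
H2-Aa: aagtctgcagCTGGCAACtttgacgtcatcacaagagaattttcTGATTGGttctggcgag
H2-Eb1: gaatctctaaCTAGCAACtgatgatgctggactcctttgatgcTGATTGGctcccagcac
H2-DMb1: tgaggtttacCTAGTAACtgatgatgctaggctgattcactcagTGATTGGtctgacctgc
H2-DMb2: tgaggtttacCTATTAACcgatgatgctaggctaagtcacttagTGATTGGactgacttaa
These stretches are chr17:34287857-34287917 (minus strand) for H2-Aa, and on the plus strand chr17:34305763-34305822 for H2-Eb1, chr17:34153084-34153144 for H2-DMb1 and chr17:34145113-34145173 for H2-DMb2. The X and Y letters are 26 bases apart in H2-Aa, H2-DMb1 and H2-DMb2 and 25 bases apart in H2-Eb1. Between the neighbouring genes H2-DMb1 and H2-DMb2, 52 of the 61 bases shown are the same. A match of letters is a description and not a binding site, and no binding or methylation was measured.

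Before the class II values, the labels were checked. The Bcor-/-Dnmt3a-/- LSK libraries stood apart from their cell type: Cd34, a marker of early progenitors, had 5.87 and 37.3 FPKM against 548 to 650 FPKM in WT, and Kit, the receptor that defines the gate, had 47.7 and 19.4 against 148 to 174. Of 8 LSK markers 6 fell in these libraries, of 4 megakaryocyte markers 3 fell, and all 8 erythroid markers rose, where 13.3% of all tested genes were called lower and 15.0% higher. Ly6a, which encodes Sca1, was present at 63.5 and 220 FPKM against 59.8 to 70.7 in WT. In Bcor-/- LSK against WT 4 of the 8 LSK markers were called lower and 5 of the 8 erythroid markers higher. Of the 4 megakaryocyte markers 0 were called there by limma, and 13.2% of all tested genes were called in either direction. Bcor ranged from 22.4 to 37.4 FPKM over the 4 LSK libraries that lack it by label and from 29.5 to 32.4 over WT. Dnmt3a ranged from 10.4 to 16.9 FPKM over the 5 LSK libraries labelled as lacking it and from 16.1 to 19.8 over WT. In MEP, Bcor had 19.6 and 26.7 FPKM in Bcor-/-Dnmt3a-/- and 19.5 and 22.4 in Bcor-/- against 21.3 to 26.9 in WT. Dnmt3a had 6.85 and 3.44 FPKM in Bcor-/-Dnmt3a-/- MEP and 5.40, 2.97 and 2.56 in Dnmt3a-/- MEP against 5.49 to 6.64. In the study's text the deletion spans a few exons of Bcor and leaves an unstable mRNA, which PCR did not detect in Bcor-/- LSK cells. By western blot the study found Bcor protein lost in Bcor-/- marrow cells. It also reports Bcor deletion in leukemic Bcor-/-Dnmt3a-/- mice, and a complete loss of Dnmt3a in these mice alone. The Bcor value of the library labelled Bcor-/-Dnmt3a-/- replicate 2 was the highest of all LSK libraries. The Dnmt3a value of its replicate 1 in MEP was above WT. Neither value shows the labelled loss, but each covers a whole gene and cannot tell whether a few exons were deleted. Within the range of WT were Bcor in MEP of replicate 2 of Bcor-/- and of Bcor-/-Dnmt3a-/-, and Dnmt3a in LSK of Dnmt3a-/- replicate 1, and every group is named here by its label alone. The depth in reads is unknown, and the steps between low values put the libraries between 0.785 and 1.29 times WT replicate 1 in LSK, and at up to 1.61 times in MEP.

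The first comparison asks how class II RNA differed in the LSK libraries labelled Bcor-/-Dnmt3a-/-. Cd74, H2-Aa, H2-Ab1, H2-Eb1 and Ciita rose in Bcor-/-Dnmt3a-/- LSK by 2.91-fold to 7.57-fold, while neither DM gene was called. Cd74 had 1054 and 2723 FPKM in the Bcor-/-Dnmt3a-/- LSK libraries, against 189, 414 and 141 in WT, 149.9, 119 and 164 in Dnmt3a-/- and 233 and 99.2 in Bcor-/-. Both Bcor-/-Dnmt3a-/- libraries were above all 8 others, and replicate 2 was the higher. Group means were 1888 ± 1179.9 FPKM (SD, n = 2) against 248 ± 145 (SD, n = 3) in WT, so the spread within each group was wide. On the log2(FPKM + 1) scale used for all tests, Cd74 was higher by 2.92 (SE 0.54, limma adjusted p = 0.00383).

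The chains of the class II molecules were also highest in the Bcor-/-Dnmt3a-/- libraries. H2-Aa, the I-A alpha chain, had 582 and 1029.7 FPKM in Bcor-/-Dnmt3a-/- LSK, whereas the WT libraries had 137, 250.2 and 104, a log2 difference of 2.33 (SE 0.45, limma adjusted p = 0.00483). H2-Ab1, its beta chain partner, had 438 and 546 FPKM against 129, 215 and 101, a log2 difference of 1.78 (SE 0.35, limma adjusted p = 0.00543). H2-Eb1, the I-E beta chain, had 264 and 395 FPKM against 53.0, 96.3 and 35.9, a log2 difference of 2.49 (SE 0.44, limma adjusted p = 0.00291). For each of the 3 chains replicate 2 was the higher of the Bcor-/-Dnmt3a-/- libraries, and the lower one was still above every other LSK library. Among the WT libraries replicate 2 had the highest level of all 7 genes.

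Ciita was the least abundant of the 7 genes. It had 6.48 and 14.4 FPKM in Bcor-/-Dnmt3a-/- LSK, whereas the WT libraries had 1.88, 3.77 and 2.66, and both values were above the other 8 libraries. The log2 difference was 1.54 (SE 0.34, limma adjusted p = 0.00932), a scale that understates the change of a gene at this level.

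The H2-M genes were not called against WT. H2-DMa had 76.8 and 106 FPKM in Bcor-/-Dnmt3a-/- LSK, whereas the WT libraries had 106, 110.2 and 103, and the groups overlapped (log2 difference -0.23, SE 0.16, limma adjusted p = 0.326). H2-DMb1 had 38.5 and 46.7 FPKM against 28.3, 31.5 and 27.2, with no overlap between the groups, and its difference of 1.45-fold was under the 1.5-fold threshold (log2 difference 0.53, SE 0.19, limma adjusted p = 0.059). Without WT replicate 2 or without Bcor-/-Dnmt3a-/- replicate 1, H2-DMb1 would pass both thresholds. H2-DMa shares its locus with Brd2, a bromodomain gene on the other strand, which had 106 and 195 FPKM in Bcor-/-Dnmt3a-/- LSK and 109 to 121 in WT, and whether reads were counted by strand is not given in the sources used here.

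**Figure D1:**
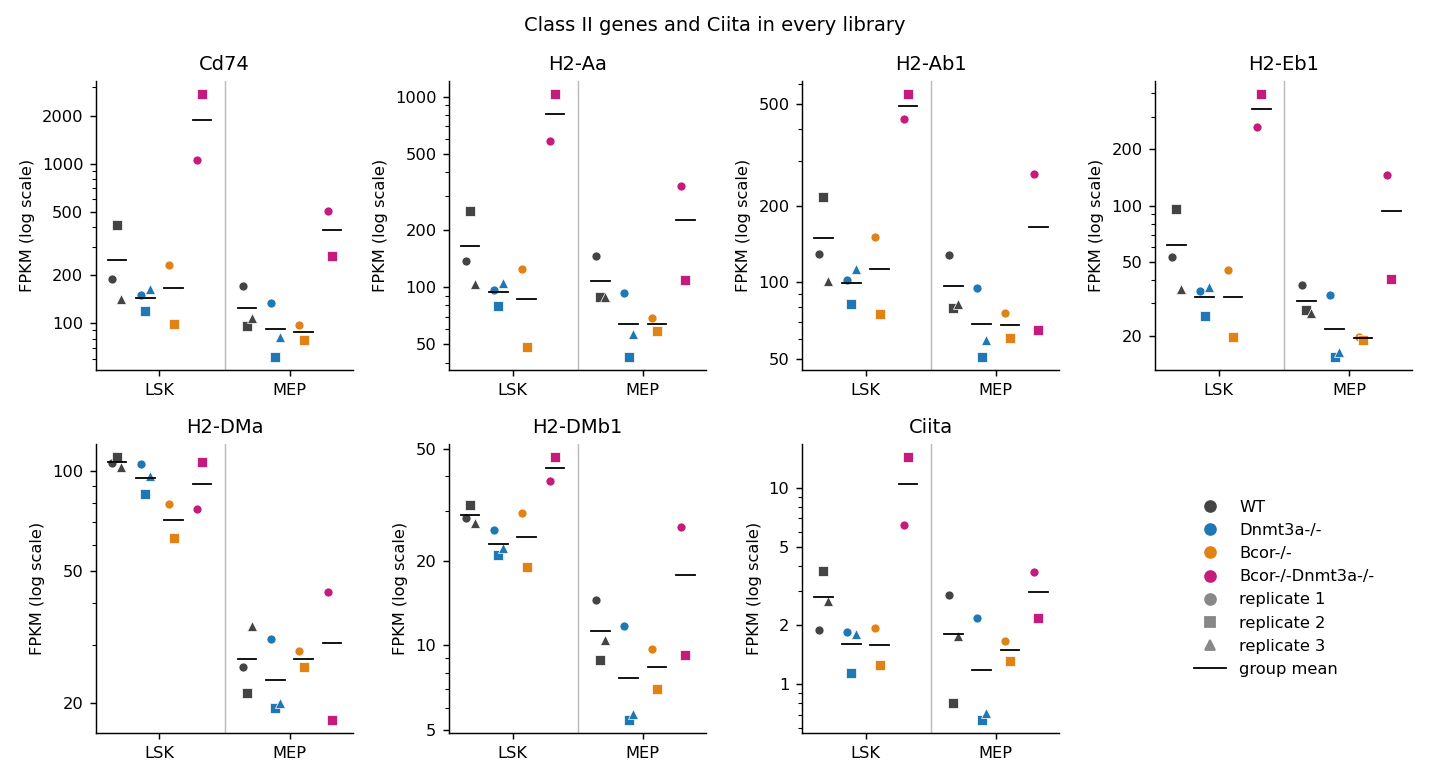
FPKM (log axis) of the 7 genes in each of 20 libraries, with LSK on the left and MEP on the right of each panel, colours for the genotypes, symbols for the replicate numbers and bars for group means. In LSK the Bcor-/-Dnmt3a-/- libraries lie above all others for 6 of the 7 genes, and in MEP for Cd74 and H2-Eb1 only.

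The call required an unadjusted limma p under 0.05 together with more than a 1.5-fold difference. By this rule 5 of the 7 genes were called higher in Bcor-/-Dnmt3a-/- LSK against WT and none lower, where 15.0% of all 11952 tested genes were called higher. The same 5 also had an adjusted p under 0.05, as did 12.3% of all tested genes called in this direction. For 6 of the 7 the groups did not overlap, against 25.5% of all tested genes in that direction. The median log2 difference of the 7 genes was 1.78, beside 0.02 over all tested genes. Leaving out replicate 1 or 2 of the Bcor-/-Dnmt3a-/- libraries gave a log2 difference of 3.60 or 2.24 for Cd74 and of 2.06 or 1.02 for Ciita. For groups of 2 and 3 libraries the smallest p of an exact permutation test is 0.1, and the limma p-values rest on the spread shared by all 4 genotypes in the model. In bulk RNA a change in the number of cells of a type and a change in RNA per cell cannot be told apart.

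The LSK libraries labelled Bcor-/- or Dnmt3a-/- gave no call among the 7 genes against WT. In Bcor-/- LSK, 0 of the 7 genes were called by limma, where 13.2% of all tested genes were called in either direction, and 1 of the 7 had an unadjusted p under 0.05. This gene was H2-DMa, with 79.7 and 62.7 FPKM against 103 to 110.2 in WT, a log2 difference of -0.58 (SE 0.16, limma adjusted p = 0.0662) that was just under the fold threshold. All 7 log2 differences were negative, from -0.97 for H2-Aa to -0.28 for H2-DMb1. The 2 Bcor-/- libraries were far apart, and in replicate 1, labelled with 2 mice, Cd74, H2-Aa, H2-Ab1, H2-Eb1, H2-DMb1 and Ciita lay within the range of WT. On omitting single libraries the log2 difference ran from -1.63 to -0.30 for H2-Aa and from -1.49 to -0.33 for H2-Eb1. Without WT replicate 3, 3 of the 7 genes were called, beside 1367 of all 11952 tested genes.

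In Dnmt3a-/- LSK, 0 of the 7 genes were called by limma, 0 had an unadjusted p under 0.05, and 0.443% of all tested genes were called. Their log2 differences from WT ran from -0.81 for H2-Eb1 to -0.16 for H2-DMa, all negative. The Dnmt3a-/- libraries were close to each other, with Cd74 at 144 ± 22.9 FPKM (SD, n = 3) and H2-Ab1 at 99.3 ± 15.7 FPKM (SD, n = 3). H2-DMb1, at 20.9 to 25.7 FPKM, and Ciita, at 1.15 to 1.85 FPKM, did not overlap with the WT libraries, against 4.98% of all tested genes that were lower without overlap. Without WT replicate 3, 1 of the 7 genes was called, beside 69 of all 11952 tested genes. The order of the group means in LSK was Bcor-/-Dnmt3a-/-, WT, Bcor-/- and Dnmt3a-/- for Cd74 and H2-Ab1, and the last 3 groups overlapped each other.

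**Figure D2:**
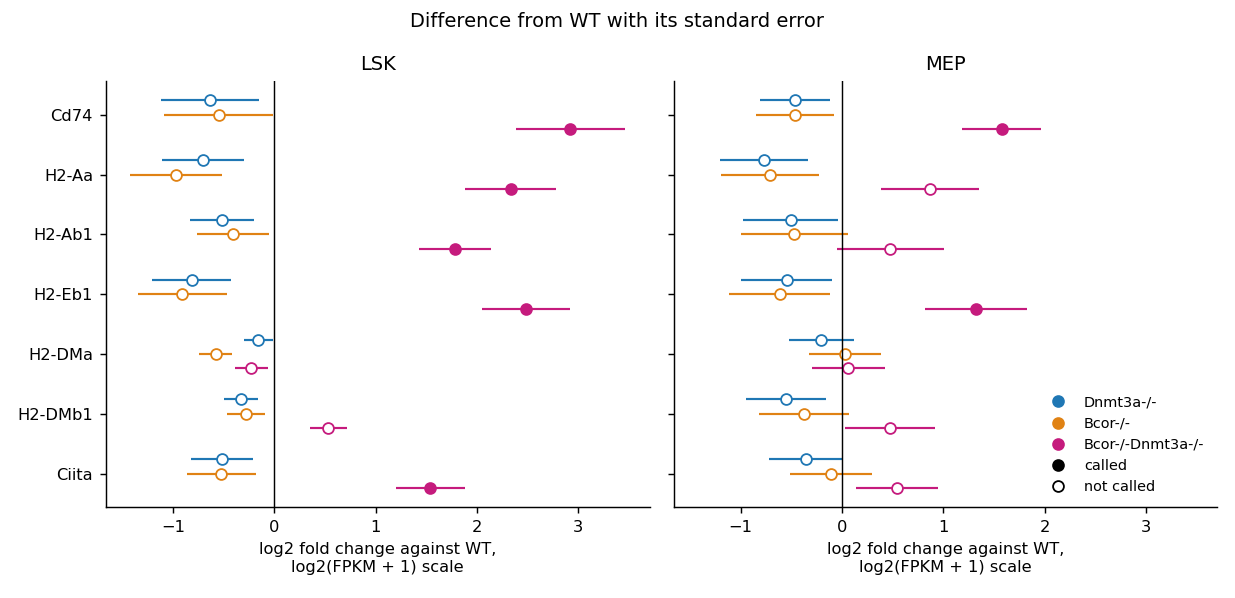
Log2 fold change against WT on the log2(FPKM + 1) scale (x axis) for the 7 genes (y axis) in LSK and MEP, with points for the 3 mutant genotypes, bars for the standard error and filled points for called genes. The single knockouts have no called gene, and Bcor-/-Dnmt3a-/- has 5 in LSK and 2 in MEP.

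Set against the single knockouts, Bcor-/-Dnmt3a-/- LSK had 6 of the 7 genes called higher in both comparisons, where 15.8% of all tested genes were called higher against Bcor-/- and 15.9% against Dnmt3a-/-. These comparisons use the same Bcor-/-Dnmt3a-/- libraries as the one with WT. Cd74 was higher by a log2 difference of 3.47 (SE 0.59, limma adjusted p = 0.00301) against Bcor-/- and 3.56 (SE 0.54, limma adjusted p = 0.00133) against Dnmt3a-/-. H2-DMb1, which missed the fold threshold against WT, was higher by 0.82 (SE 0.20, limma adjusted p = 0.0168) and 0.86 (SE 0.19, limma adjusted p = 0.00767). Only H2-DMa was not called in either, with 0.35 and -0.07.

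In MEP cells the Bcor-/-Dnmt3a-/- libraries differed less clearly from WT, and the 2 libraries differed from each other. Cd74 and H2-Eb1 rose, and the other 5 genes were not called. Cd74 had 503 and 262 FPKM against 171, 96.3 and 108 in WT, 133, 61.3 and 82.2 in Dnmt3a-/- and 97.5 and 78.7 in Bcor-/-, a log2 difference from WT of 1.58 (SE 0.39, limma adjusted p = 0.0162). H2-Eb1 had 146 and 40.4 FPKM against 37.7, 27.6 and 26.7 in WT, a log2 difference of 1.32 (SE 0.50, limma adjusted p = 0.0744). For both genes the Bcor-/-Dnmt3a-/- libraries were above all 8 others, though replicate 2 of H2-Eb1 by little. These were 2 of the 7 genes without overlap with WT, near the 24.6% of all tested genes in that direction.

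H2-Aa had 338 and 109 FPKM in Bcor-/-Dnmt3a-/- MEP against 146, 88.7 and 88.7 in WT (log2 difference 0.87, SE 0.48, limma adjusted p = 0.194). H2-Ab1 had 265 and 65.2 FPKM against 129, 79.5 and 82.2 (0.48, SE 0.53, limma adjusted p = 0.508). In both, replicate 1 was above every WT library, while replicate 2 of H2-Ab1 was below all of them. H2-DMa was at 43.1 and 17.9 FPKM against 25.7, 21.5 and 34.3 in WT, and H2-DMb1 at 26.3 and 9.24 against 14.5, 8.88 and 10.4. Ciita had 3.76 and 2.17 FPKM against 2.84, 0.802 and 1.76. For all 5 of these genes replicate 1 was the higher library in MEP, whereas in LSK replicate 2 was the higher for the same genes.

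By the call rule 2 of the 7 genes were higher in Bcor-/-Dnmt3a-/- MEP against WT, which is not far from the 18.5% of all 10933 tested genes that were called higher. With the adjusted p in the rule, Cd74 was the 1 gene called (14.1% of all tested genes). With 1 variance weight per genotype 0 of the 7 genes were called by limma and 0 had an unadjusted p under 0.05, so that the call of Cd74 was lost as well (limma adjusted p = 0.348). Leaving out replicate 1 brought H2-Eb1 to a log2 difference of 0.40 and H2-Aa to 0.05. It also reversed the sign of H2-Ab1 (-0.53), H2-DMa (-0.55) and H2-DMb1 (-0.23). Leaving out replicate 2 gave 2.23 for H2-Eb1 and 1.68 for H2-Aa. Leaving out WT replicate 2 or WT replicate 3 left 1 of the 7 genes called, without H2-Eb1. Of all 10933 tested genes 2821 and 3342 were then called in either direction. Against Bcor-/- MEP 3 of the 7 genes were called higher (16.5% of all tested), Cd74, H2-Aa and H2-Eb1, and against Dnmt3a-/- MEP 4 (20.5% of all tested), with H2-DMb1 in addition. These comparisons also turned on single libraries. On omitting them, H2-Aa ran from 0.76 to 2.39 against Bcor-/- MEP and from 0.82 to 2.45 against Dnmt3a-/- MEP.

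In Bcor-/- MEP and in Dnmt3a-/- MEP 0 of the 7 genes were called by limma and 0 had an unadjusted p under 0.05, where 2.76% and 0.412% of all tested genes were called. H2-Aa had 68.9 and 58.8 FPKM in Bcor-/- MEP and 93.2, 42.9 and 56.9 in Dnmt3a-/- MEP, against 88.7 to 146 in WT. Of the 14 log2 differences of the 7 genes in these 2 comparisons 13 were negative, the exception being H2-DMa in Bcor-/- at 0.03.

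The 2 tables were scaled separately, so levels in LSK and MEP are set side by side without a test. H2-DMa stood out, with 62.7 to 110.2 FPKM over the 10 LSK libraries and 17.9 to 43.1 over the 10 MEP libraries. Cd74 and H2-Ab1 of WT had 248 ± 145 and 149 ± 59.4 FPKM in LSK and 125 ± 40.4 and 96.7 ± 27.6 in MEP (SD, n = 3), with overlapping libraries. To ask whether the difference between Bcor-/-Dnmt3a-/- and WT was unlike in LSK and MEP, the MEP value of each mouse was subtracted from its LSK value, and these differences were tested. By limma 0 of the 7 genes were called, 0 had an unadjusted p under 0.05, and 28.0% of all 10773 tested genes were called. Cd74 had a larger difference in LSK by 1.34 (SE 0.73, limma adjusted p = 0.206) and H2-Aa by 1.47 (SE 0.71, limma adjusted p = 0.161). This test turned on single mice, since 6 of the 7 genes were called without Bcor-/-Dnmt3a-/- replicate 1, 4 without WT replicate 2 and 1 without Bcor-/-Dnmt3a-/- replicate 2. In Bcor-/- and Dnmt3a-/- the corresponding counts were 0 of 7 by limma, where 10.8% and 0.873% of all tested genes were called.

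The proportions of the class II RNAs within a library also differed in Bcor-/-Dnmt3a-/-, and these ratios were noticed in the data and were not tested. In 8 LSK libraries of the other genotypes the ratio of Cd74 to H2-Ab1 lay between 1.33 and 1.92, and in Bcor-/-Dnmt3a-/- it was 2.41 and 4.99. In MEP none of the other 8 libraries exceeded 1.40, and both Bcor-/-Dnmt3a-/- libraries did, with 4.02 in replicate 2. Replicate 2 thus had the higher ratio in both cell types, also in MEP, where its H2-Ab1 level was below WT.

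The ratio of H2-Eb1 to H2-Ab1 was 0.604 and 0.724 in Bcor-/-Dnmt3a-/- LSK against 0.263 to 0.447 in the other 8 libraries, and 0.552 and 0.621 against 0.263 to 0.352 in MEP. H2-Aa to H2-Ab1 was 1.33 and 1.89 in LSK against 0.650 to 1.16. For all of these ratios both Bcor-/-Dnmt3a-/- libraries were above the other 8 of their cell type. Cd74 exceeded H2-DMa, a member of the pathway that was not called, by 13.7 and 25.6 times in Bcor-/-Dnmt3a-/- LSK and by 1.38 to 3.75 times in the other 8 libraries.

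**Figure D3:**
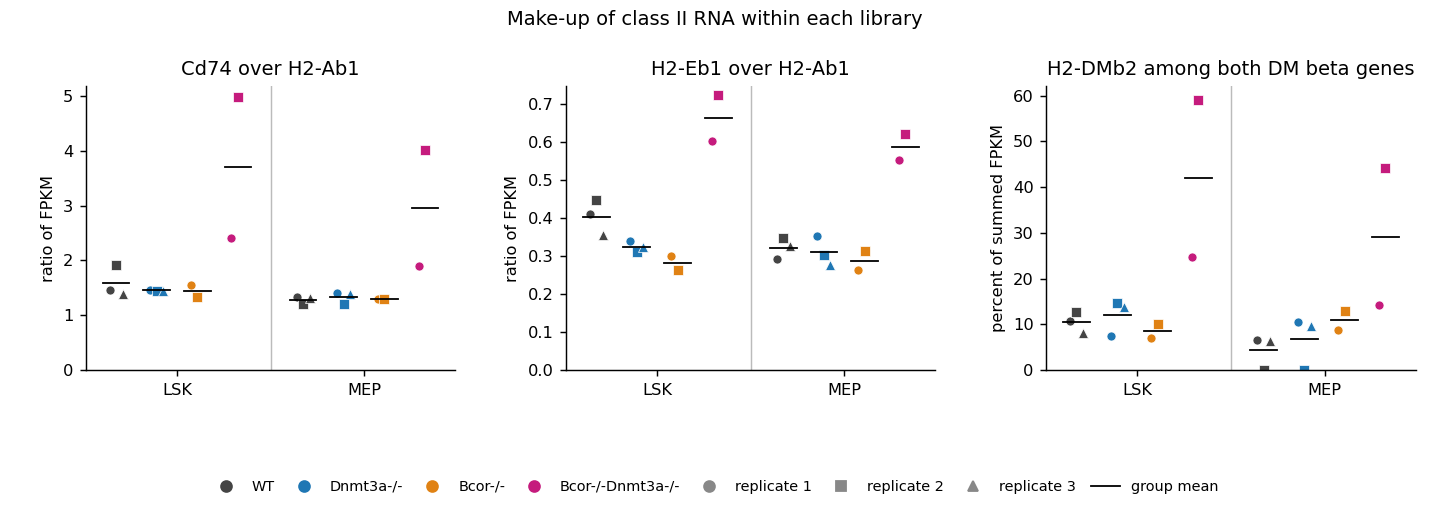
Ratios of FPKM within each library, with Cd74 over H2-Ab1 (left), H2-Eb1 over H2-Ab1 (middle) and H2-DMb2 as a percentage of the sum of H2-DMb1 and H2-DMb2 (right), by cell type, genotype and replicate, with bars for group means. Both Bcor-/-Dnmt3a-/- libraries lie above the other 8 of the same cell type in all 3 panels.

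The genes of the further lists were tested where their mean level in a cell type was 1 FPKM or more. Some passed this filter only through the Bcor-/-Dnmt3a-/- libraries and so had to be higher there. The counts below therefore cover genes that also averaged 1 FPKM over the other 8 libraries, of which 13.1% in LSK and 15.8% in MEP were called higher over the whole table, and the rest are left out of the counts.

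The remaining class II genes of the locus were H2-DMb2, H2-Oa, H2-Ob, H2-Eb2 and the I-E alpha pseudogene. The first 3 passed the filter in the other LSK libraries and all 3 rose in Bcor-/-Dnmt3a-/- LSK. H2-DMb2, the other DM beta chain gene, had 12.7 and 67.4 FPKM in Bcor-/-Dnmt3a-/- LSK, whereas the WT libraries had 3.42, 4.59 and 2.37 (log2 difference 2.81, SE 0.56, limma adjusted p = 0.00545). It thus made up 24.8% and 59.1% of the summed DM beta FPKM, against 6.94% to 14.7% in the other 8 libraries. H2-DMb1 and H2-DMb2 are nearly identical in sequence, and how shared reads were divided between them is not given in the sources used here. H2-Eb2, which passed the filter only through these libraries, had 1.69 and 6.35 FPKM against 0.302 to 0.477 in WT. H2-Oa and H2-Ob, which form H2-O, the inhibitor of H2-M, were called at the unadjusted p only, H2-Oa with 36.9 and 85.8 FPKM against 25.5 to 30.7 (limma adjusted p = 0.093). Without Bcor-/-Dnmt3a-/- replicate 2 the count fell to 1 of 3, H2-DMb2. The I-E alpha pseudogene was listed at 0 in all 10 LSK libraries. In MEP 1 of the 2 genes that passed in the other libraries rose, H2-Ob (56.6 and 14.1 FPKM against 6.93 to 11.3), and without replicate 1 the count was 0. H2-DMb2 passed only through Bcor-/-Dnmt3a-/-, with levels of 4.35 and 7.31 FPKM beside 0 to 1.01 in WT.

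The DNA-binding factors with which Ciita acts did not rise with it. Of 8 genes for RFX, NF-Y, CREB1 and ATF1, 0 were called higher and 2 lower by limma in Bcor-/-Dnmt3a-/- LSK (13.3% of all tested genes were called lower). The median log2 difference of the list was 0.14, and it was -0.067 without replicate 1 and 0.28 without replicate 2. Rfx5, the large RFX subunit, had 13.9 and 11.4 FPKM against 19.7, 19.5 and 21.5 in WT (log2 difference -0.64, SE 0.14, limma adjusted p = 0.00843). Nfya, the subunit of NF-Y that contacts the CCAAT box, had 54.5 and 37.1 FPKM against 81.4, 80.0 and 93.1 (-0.90, SE 0.15, limma adjusted p = 0.00249). Both genes were below every WT library in both replicates, and without replicate 2 the count of lower genes was 1. In MEP 0 of the 8 were called by limma and 2 had an unadjusted p under 0.05. These were Creb1, with a log2 difference of 0.57 (SE 0.14, limma adjusted p = 0.0147), and Rfxap, an RFX subunit, with -0.51 (SE 0.14, limma adjusted p = 0.0235). Without MEP replicate 1, 2 of the 8 genes were called higher.

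Genes that act on Ciita were tested as a list of 10, among them the interferon gamma receptor, Irf1, Irf8, Spi1, the feedback inhibitor Socs1 and the repressor Prdm1. In Bcor-/-Dnmt3a-/- LSK 5 rose and 0 fell, with a median log2 difference of 0.80 that came down to 0.25 without replicate 2. Prdm1, the repressor of Ciita in plasma cells, had 2.55 and 25.2 FPKM against 0.531, 1.30 and 0.624 (log2 difference 2.43, SE 0.71, limma adjusted p = 0.0316). Irf8 had 50.8 and 380 FPKM against 38.3, 62.0 and 33.8 (1.67, SE 0.65, limma adjusted p = 0.0871), so replicate 1 lay within WT and the difference came from replicate 2. In MEP 5 of 8 tested genes of this list rose and 1 fell (12.4% of all tested genes were called lower), with Spi1 at 37.2 and 28.2 FPKM against 4.81 to 12.1 and Ifngr1, the receptor chain that binds interferon gamma, at 89.7 and 82.9 against 130.2 to 136. Without MEP replicate 1 the count of higher genes was 2.

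Genes for peptide loading and turnover of class II molecules rose in 6 of 7 cases in Bcor-/-Dnmt3a-/- LSK. The median log2 difference of the list was 2.49, and the count was 6 without either replicate. Lgmn, an endosomal protease that starts the cleavage of Cd74, had 231 and 89.4 FPKM against 10.9, 23.5 and 3.27 in WT (log2 difference 3.75, SE 0.69, limma adjusted p = 0.00382). Ctss, which makes the final cut of Cd74 in dendritic cells and B cells, had 359 and 393 FPKM against 56.5, 89.9 and 56.0 (2.49, SE 0.29, limma adjusted p = 0.000346). March1, a ligase that marks class II molecules for degradation, had 7.10 and 26.6 FPKM against 0.658, 2.33 and 0.401 (2.92, SE 0.52, limma adjusted p = 0.00329). The exception was Sppl2a, which removes the last membrane stub of Cd74, at 28.9 and 22.4 FPKM against 21.4 to 23.0.
In MEP 2 of the 6 that passed in the other libraries rose, Lgmn with 136 and 37.3 FPKM against 1.21 to 1.93 (4.87, SE 0.46, limma adjusted p = 0.000433) and Ctss with 238 and 75.2 against 10.5 to 14.3 (3.32, SE 0.46, limma adjusted p = 0.00155). The count was 3 without replicate 1. Unlike H2-Aa and H2-Ab1, both genes were above WT in both MEP replicates.

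Of 6 co-stimulatory ligands, surface proteins that act on T cells beside class II, 4 passed the filter in the other LSK libraries. Of these, 2 rose in Bcor-/-Dnmt3a-/- LSK, and 4 without replicate 1. Cd86 had 22.5 and 10.5 FPKM against 2.76 to 6.74 in WT (log2 difference 1.70, SE 0.36, limma adjusted p = 0.00751), and Icosl had 31.2 and 22.8 against 7.79 to 8.65 (1.60, SE 0.15, limma adjusted p = 0.000139). Cd40 and Cd80 passed the filter only through the Bcor-/-Dnmt3a-/- libraries, Cd40 with 2.495 and 11.3 FPKM against 0 to 0.790 in WT and Cd80 with 2.55 and 9.08 against 0.158 to 0.375. In MEP 2 ligands passed in the other libraries and both rose, Icosl with 19.2 and 6.89 FPKM against 1.28 to 2.33 and Cd274 with 7.37 and 8.09 against 1.16 to 3.76. Cd86, which did not, had 17.4 and 1.89 FPKM against 0.248 to 0.958 in MEP. Class I genes summed to 6897 and 6270 FPKM in Bcor-/-Dnmt3a-/- LSK against 3878 to 5092 in the other 8 libraries, with a median log2 difference from WT of 0.35. Calls among them were near the background in LSK, where 2 of 10 rose (beside 13.1% of all genes that passed in the other libraries). These were Nlrc5, the class I counterpart of Ciita, with 62.4 and 36.7 FPKM against 19.8 to 27.2, and the class I heavy chain H2-D1, with 1177 and 1345 against 709 to 720.0. The count was 4 without replicate 2. In MEP 3 of 10 rose (beside 15.8%), and this turned on the library, with 8 higher without replicate 2 and 0 higher and 2 lower without replicate 1. Mif, the ligand of surface Cd74, fell in both cell types (128 and 86.1 FPKM against 166 to 199 in LSK, where it was not called without replicate 2), and its receptor Cxcr4 rose in both (103 and 345 against 38.1 to 61.0 in LSK).

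**Figure D4:**
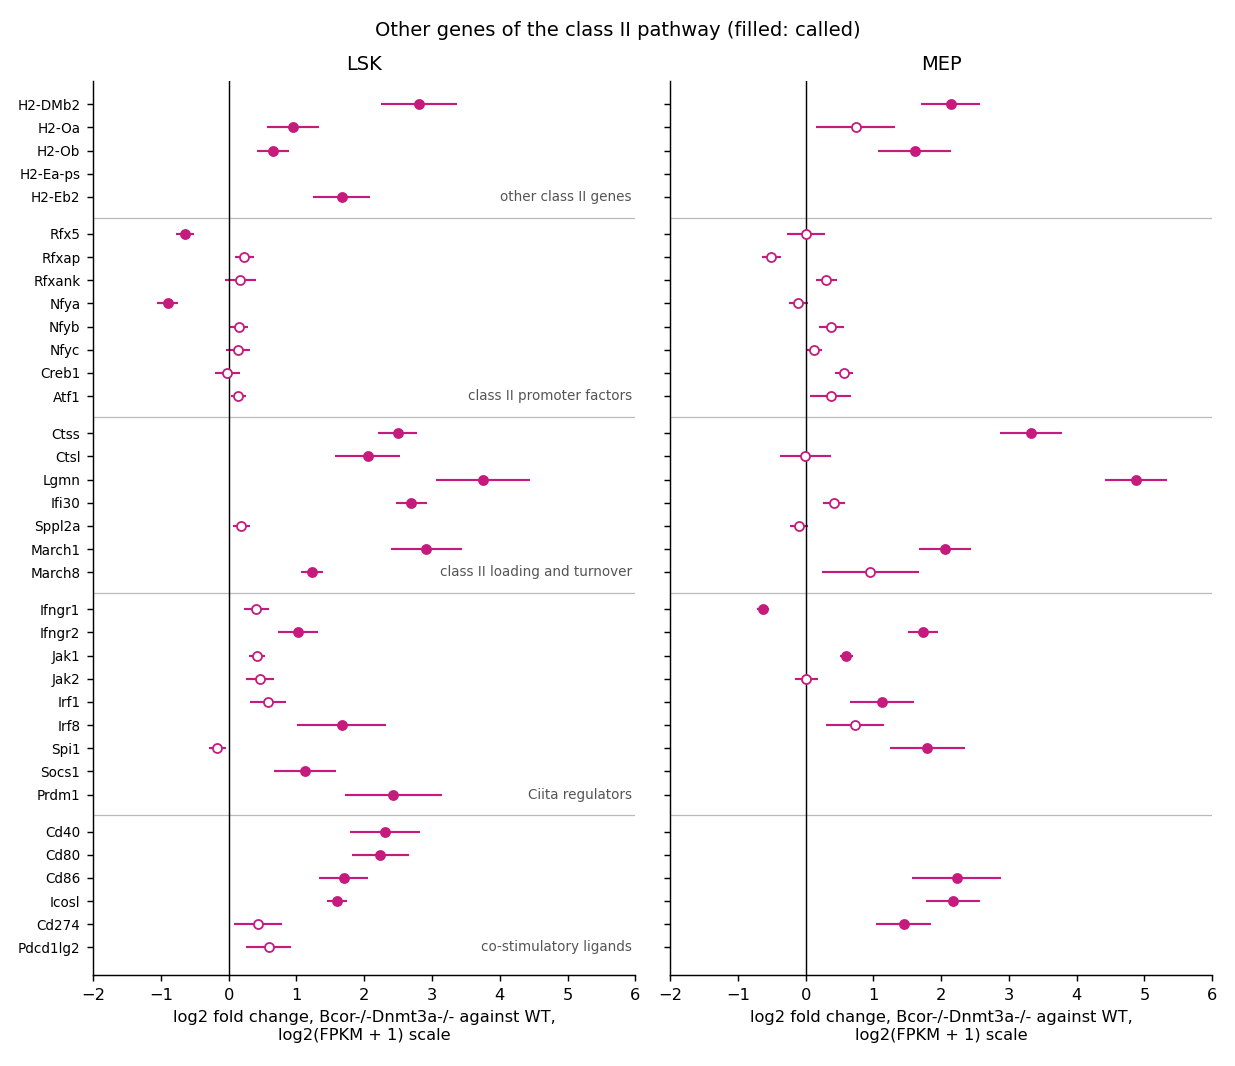
Log2 fold change of Bcor-/-Dnmt3a-/- against WT on the log2(FPKM + 1) scale (x axis) for 35 further genes of the pathway (y axis, grouped in 5 lists) in LSK and MEP, with bars for the standard error, filled points for called genes and no point for genes under the filter. In LSK the loading genes lie to the right of 0, and the promoter factors lie around 0 apart from Rfx5 and Nfya on the left.

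B cell markers rose with the class II genes in LSK, whereas the summed dendritic cell and macrophage markers overlapped the other libraries. Of the 4 B cell markers that passed the filter in the other libraries 4 rose in Bcor-/-Dnmt3a-/- LSK, and the summed level of all 8 markers was 1634 and 1367 FPKM against 39.1 to 76.2 in WT. Cd79a, a chain of the B cell receptor complex, had 736 and 466 FPKM against 4.20 to 16.2 in WT. Of 5 such dendritic cell markers 2 rose, and 3 without replicate 1, and the summed level of all 8 was 21.8 and 476 FPKM against 12.5 to 34.0. The higher sum was that of replicate 2, in which Siglech, a marker of plasmacytoid dendritic cells, had 347 FPKM against 3.27 in replicate 1 and 0.858 to 10.5 in WT. Xcr1, which defines conventional type 1 dendritic cells and was under the filter, went the other way. It was at 0.552 and 0.261 FPKM, below every WT library. Of 8 monocyte and macrophage markers 2 rose, 3 without replicate 1 and 7 without replicate 2, and their sum was 1069 and 139 FPKM against 61.1 to 238. Here replicate 1 was high, with C1qa, a complement gene of macrophages that was not called, at 360.3 FPKM against 7.38 in replicate 2 and 6.93 to 61.4 in WT. The 2 called markers were above WT in both replicates. They were Cd68 (log2 difference 1.09, SE 0.27, limma adjusted p = 0.0166) and Cd14 (2.10, SE 0.38, limma adjusted p = 0.00344).

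No marker of these 3 lists was at 0 in either Bcor-/-Dnmt3a-/- LSK library. WT LSK replicate 2, the WT library with the highest class II levels, also had the highest C1qa (61.4 FPKM) and Siglech (10.5 FPKM) of the WT libraries. The same library had the highest WT sums of B cell (76.2 FPKM), dendritic cell (34.0), macrophage (238), granulocyte (11388), T and NK (244) and megakaryocyte markers (101). Its sums of LSK and erythroid markers were not the highest. The replicate with the higher Cd74, H2-Aa, H2-Ab1, H2-Eb1 and Ciita in LSK was replicate 2, and it had the higher sum of dendritic cell markers but not of B cell or macrophage markers. Of the other lists, 3 of 4 T, NK and innate lymphoid markers rose and 1 fell, which was not called without replicate 1. Of 6 granulocyte markers 1 was called higher, near the background, with groups that overlapped, and 0 were called higher by limma without either replicate. The lineage-negative, Kit+ gates of both sorts are meant to remove mature lymphoid and myeloid cells, and the purity of the sorted cells was not measured here. The part of these cells in the class II result was not tested.

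In Bcor-/-Dnmt3a-/- MEP the B cell sum was 1138 and 154 FPKM against 16.8 to 74.0 in WT (5 of 6 markers higher, and 2 without replicate 1), the monocyte and macrophage sum 571 and 89.5 against 12.3 to 21.8 (2 of 3 higher, and 3 without replicate 1) and the dendritic cell sum 17.1 and 48.0 against 24.8 to 31.6 (1 of 4 higher and 1 lower, or 2 lower without replicate 1). Replicate 1, which had the higher H2-Aa, H2-Ab1, H2-Eb1 and H2-DMb1 in MEP, also had the higher B cell and macrophage sums. Further, 4 of 6 granulocyte markers and 2 of 3 T, NK and innate lymphoid markers rose, or 1 without replicate 1. Of 8 erythroid markers 3 rose and 1 fell, and this turned on the library, with 4 higher and 0 lower without replicate 1 and 2 higher and 4 lower without replicate 2. Of 4 megakaryocyte markers 2 fell, or 1 without replicate 1 and 4 without replicate 2. Of 5 LSK markers 0 rose by limma and 1 fell, or 2 without replicate 1. Their part in the class II values was not tested.

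**Figure D5:**
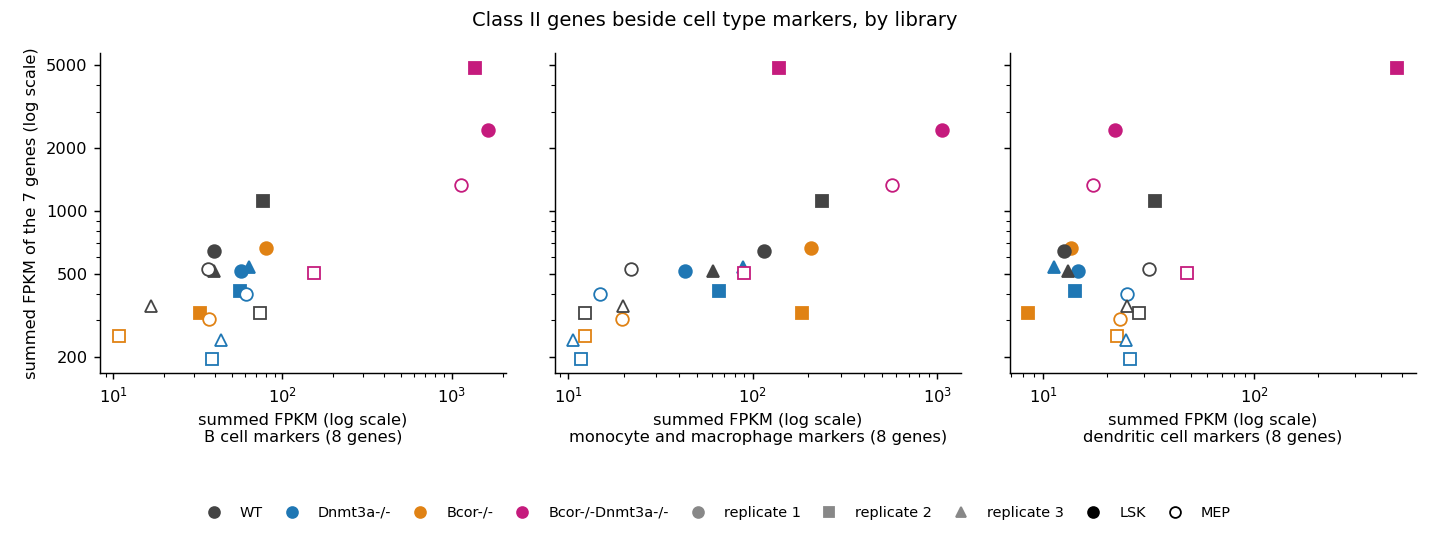
Summed FPKM of the 7 genes (y axis, log) against the summed FPKM of B cell (left), monocyte and macrophage (middle) and dendritic cell markers (right, x axes, log) in 20 libraries, with filled symbols for LSK and open symbols for MEP. The Bcor-/-Dnmt3a-/- LSK libraries have class II sums of 2460 and 4861 FPKM, and which of the 2 is further right differs between the marker lists.

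The genes whose pattern over the libraries was most like the class II profile were looked for as a description. The profile was the mean over Cd74, H2-Aa, H2-Ab1 and H2-Eb1 of the log2(FPKM + 1) value minus its WT mean. Likeness was the mean absolute log2 difference from this profile over the 10 libraries of a cell type. These libraries differ in depth and cell make-up, which all genes of a library share. In LSK the 5 most like genes outside the 7 were Ceacam16 (0.28), Lpxn (0.28), Cxcr3 (0.28), Pirb (0.29) and Apoe (0.31). Ceacam16, with 6.03 and 11.7 FPKM against 0.497 to 1.04 in WT, passed the filter only through the Bcor-/-Dnmt3a-/- libraries, which make the profile high. Apoe, a lipoprotein of macrophages and other cells, had 535 and 824 FPKM in Bcor-/-Dnmt3a-/- LSK against 98.9 to 207 in WT, and Pirb, an inhibitory receptor for class I molecules, had 24.2 and 29.7 against 3.36 to 7.18. Ciita stood at rank 25 of all tested genes in LSK, H2-DMb1 at rank 502 and H2-DMa at rank 2556.

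In MEP the most like genes were H2-Q4 (0.16), Nlrc5 (0.18), Spata6 (0.20), P2rx7 (0.21) and H2-Q7 (0.22), of which H2-Q4, H2-Q7 and Nlrc5 belong to the class I system. P2rx7, with 6.40 and 2.34 FPKM against 1.10 to 1.70 in WT and a mean of 0.836 over the other 8 libraries, likewise passed only through Bcor-/-Dnmt3a-/-. H2-Q4 had 252 and 92.2 FPKM in Bcor-/-Dnmt3a-/- MEP against 59.8 to 82.4 in WT, and Nlrc5 had 40.5 and 11.6 against 6.04 to 10.5. H2-DMb1 stood at rank 8 in MEP, Ciita at rank 65 and H2-DMa at rank 1779. H2-DMa was thus the member least like the profile in both cell types.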

How the data were processed

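For each cell type the authors deposited FPKM of 24315 genes in 10 libraries, in 1 table. The submitters' processing notes name STAR 2.5.1b, SAMtools 1.9, Cufflinks 2.2.1 and the build mm9, without giving their roles or the annotation. No column was left unmapped, no 2 libraries were identical, and read counts are not given. Groups came from the genotype labels. The tables were scaled separately and were tested separately. Values were converted to log2(FPKM + 1), genes averaging under 1 FPKM across a cell type's libraries were dropped, and 1 limma model held the 4 genotypes (limma 3.58.1, R 4.3.3) with a mean-variance trend. The thresholds for calls are those of the study's methods, which name no test. The two-sided test was adjusted by Benjamini-Hochberg over all tested genes. Where nothing else is said, a library is 1 mouse. The script was tested on simulated data. Figures were drawn with matplotlib 3.10.9.

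The members and lists were chosen with earlier results of these data known, and the promoter letters after the sequences had been seen. The naming rule covered the members with every library. It also covered, per list, direction and cell type, at most the 2 genes with the largest called change in Bcor-/-Dnmt3a-/- against WT. Kit, Ly6a, Siglech, Xcr1 and C1qa in LSK, Bcor, Dnmt3a in MEP, and the I-E alpha pseudogene were named outside this rule. For likeness 5 genes per cell type were named. H2-Oa, H2-Ob, Cd86 and Icosl (in LSK), Cd274 (in MEP), Ctss (in LSK), Creb1, Rfxap, Sppl2a and Brd2 were named after their values had been seen. Same-numbered libraries did not deviate together in LSK (0 of 13 pairs with a correlation above 0.1). In MEP 8 of 13 pairs did so, while the lowest correlation was -0.19. In a group of 2 libraries the deviations mirror each other, so these pairs are not separate observations. The mice differ between the groups, and the main fits did not take the replicate numbers to pair samples. For MEP this was not settled. Alternatives were a pseudocount of 0.1, no filter and a filter of 5 FPKM, quantile normalization, median centring, a replicate block, a model with just the genotypes being compared, no trend, 1 variance weight per genotype, calls by adjusted p or by 2-fold, an unpaired fit for LSK minus MEP, and the omission of each library. Leaving out libraries for the lists, and counting only genes that pass the filter in the other 8 libraries, came as additions once the values were known. The promoter gap was widened to 10 to 40 bases after the shares had been seen. Some genes of the lists are counted in them but not reported here by name.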

Additional observations from a re-analysis of the deposited data

How the results depend on the processing

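The count of 5 called genes in Bcor-/-Dnmt3a-/- LSK against WT was the same under the other scalings, pseudocount, fits and call rules, and was 4 with the 5 FPKM filter, under which Ciita is not tested. On omitting single libraries the log2 differences of these 5 genes stayed between 1.02 (Ciita) and 3.60 (Cd74). The depth in reads is unknown, so no counting error is given. The cause of the following shifts was not tested. The pseudocount of 0.1 called 1 of the 7 genes in Bcor-/- LSK. Quantile normalization called 3 in Bcor-/- LSK and 1 in the LSK minus MEP test of Bcor-/-Dnmt3a-/-. The replicate block called 1 in Bcor-/- LSK, 1 in Bcor-/- MEP and 1 in Dnmt3a-/- MEP. It also called 5 in Bcor-/-Dnmt3a-/- against Bcor-/- MEP and 1 in the LSK minus MEP test. Whether the replicate numbers pair the samples was not settled for MEP. Variance weights called 2 in Bcor-/- LSK, 1 in Dnmt3a-/- LSK, 1 in Bcor-/- MEP, 1 in Dnmt3a-/- MEP, 0 in Bcor-/-Dnmt3a-/- MEP against WT and 2 against Dnmt3a-/- MEP. Fitting only the compared genotypes called 2 in Dnmt3a-/- LSK, 2 in Bcor-/- MEP, 1 in Dnmt3a-/- MEP, and in Bcor-/-Dnmt3a-/- MEP 1 against WT and 1 against Bcor-/-. Without the filter, and with the adjusted p, 1 was called in Bcor-/-Dnmt3a-/- MEP against WT. H2-DMa changed sign with median centring in Bcor-/-Dnmt3a-/- MEP, to -0.10 against WT and -0.12 against Bcor-/-, and to -0.0081 against Bcor-/- with quantile normalization.

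Omitting single libraries gave 0 to 5 called genes in Bcor-/- LSK, 0 to 1 in Dnmt3a-/- LSK, 0 to 1 in Dnmt3a-/- MEP, 1 to 5 in Bcor-/-Dnmt3a-/- MEP against WT, 2 to 5 against Bcor-/- MEP, 2 to 7 against Dnmt3a-/- MEP and 0 to 6 in the LSK minus MEP test. Log2 differences that crossed 0 in these omissions ran as follows. In Bcor-/-Dnmt3a-/- LSK, H2-DMa ran from -0.46 to 0.0034 against WT and from -0.30 to 0.16 against Dnmt3a-/-. In Bcor-/- LSK, Cd74 ran from -1.16 to 0.0634, H2-Ab1 from -0.91 to 0.0947 and H2-DMb1 from -0.59 to 0.0252. In Bcor-/-Dnmt3a-/- MEP against WT, H2-Ab1 ran from -0.53 to 1.48, H2-DMa from -0.55 to 0.67 and H2-DMb1 from -0.23 to 1.18. In Bcor-/- MEP, H2-DMa ran from -0.12 to 0.20 and Ciita from -0.39 to 0.15. Against Bcor-/- MEP, H2-Ab1 ran from -0.0571 to 1.95 and H2-DMa from -0.58 to 0.65, and against Dnmt3a-/- MEP they ran from -0.0188 to 1.99 and from -0.34 to 0.88. In the LSK minus MEP test H2-Eb1 ran from -0.0358 to 2.37, H2-DMa from -1.14 to 0.56 and H2-DMb1 from -0.78 to 0.90. Of the values of single genes under all alternatives, 1118 kept their direction and side of the threshold, 57 newly passed it, 29 no longer passed it and 24 changed sign.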
